A study of Mus musculus with 4 samples.

Results

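Distal Zeb1 peaks on LTR and SINE retrotransposons were described in mouse embryonic stem cells. A peak of the deposited list was taken when the repeat annotation of its centre named the class LTR or SINE and its centre lay more than 5000 bp from the transcription start site (TSS) of the gene assigned to it. Of 17435 peaks, 404 met both conditions, 271 on LTR elements and 133 on SINEs. The remaining peaks beyond 5 kb, of 6737 in total, were 2457 on LINE elements and 3876 on none of these classes, called other distal peaks here. The study applied chromatin immunoprecipitation with sequencing (ChIP-seq) to Zeb1 in D3 cells kept in ground-state medium with 1 µM PD0325901, 3 µM CHIR99021 and 20 ng/mL LIF. Chromatin was fixed in 1% formaldehyde and sheared to about 200 bp, and 8 µg of Zeb1 antibody went into each of 3 ChIP libraries, while the 1 input library received no antibody. The labels do not say whether the ChIP libraries came from separate cultures. The list holds 1 mean per peak and no value per library. No spread between replicates could therefore be computed, nothing was tested, and every value is a description. Some means, such as 130.714 ChIP reads for the peak near Llgl2, are no whole number of reads divided by 3 or fewer libraries. The number of values behind each mean is not in the list.

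LTR retrotransposons are remnants of retroviral insertions, with an internal part between a pair of long terminal repeats that are identical when the element inserts. They fall into class I (ERV1), class II (ERVK, which includes the intracisternal A particles, IAP) and class III (ERVL and the non-autonomous ERVL-MaLR). SINEs are short non-autonomous elements copied from small RNA genes. In embryonic stem cells, many LTR elements are silenced through Trim28 and Setdb1, and Zeb1 is a zinc finger repressor that binds E-boxes with the letters CACCTG.

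The central 120 bases of 3 of the 4 LTR members with the highest enrichment, and of the SINE member with the highest, are shown first, because they let a reader see what kind of sequence stood under the strongest peaks. Positions are in mm10 (GRCm38.p6), forward strand, and capitals mark an E-box core (CACCTG) on either strand. The LTR members were RLTR6-int near Obp2b (chr2:25726316-25726435), RLTR6-int near Csmd3 (chr15:49176191-49176310) and IAPEz-int near 4930515G16Rik (chr6:68289216-68289335). The SINE member was MIR near Llgl2 (chr11:115852391-115852510).
RLTR6-int near Obp2b: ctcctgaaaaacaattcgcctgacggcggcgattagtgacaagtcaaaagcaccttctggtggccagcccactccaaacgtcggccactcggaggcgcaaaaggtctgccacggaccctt
RLTR6-int near Csmd3: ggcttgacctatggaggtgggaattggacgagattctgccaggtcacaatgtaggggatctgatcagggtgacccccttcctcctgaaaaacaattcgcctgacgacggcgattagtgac
IAPEz-int near 4930515G16Rik: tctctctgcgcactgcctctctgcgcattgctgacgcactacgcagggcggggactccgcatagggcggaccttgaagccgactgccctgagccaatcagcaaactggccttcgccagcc
MIR near Llgl2: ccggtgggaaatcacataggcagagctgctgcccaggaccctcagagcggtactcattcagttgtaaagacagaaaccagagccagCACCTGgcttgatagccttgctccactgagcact
None of these LTR windows held an E-box core, and the MIR window held 1 outside soft-masked sequence. The RLTR6-int windows shared a run of 25 bases, and their peaks were centred 666 and 822 bp inside the element.

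The pair of members of 1 repeat name with the most 31-mers in common is shown to make plain how alike these loci can be. They were IAPEz-int near Igfbp3 (chr11:7581141-7581260) and IAPEz-int near 1700060C16Rik (chr6:143511166-143511285), forward strand, with capitals as above.
IAPEz-int near Igfbp3: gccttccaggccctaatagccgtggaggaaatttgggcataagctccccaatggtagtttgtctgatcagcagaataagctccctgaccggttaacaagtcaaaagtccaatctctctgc
IAPEz-int near 1700060C16Rik: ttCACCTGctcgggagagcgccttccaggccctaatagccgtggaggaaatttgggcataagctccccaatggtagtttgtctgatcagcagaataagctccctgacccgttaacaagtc
The whole peaks shared 1514 distinct 31-mers, which is 72.9% of those in the smaller peak, and the windows shared a run of 89 bases. Only the window near 1700060C16Rik held an E-box core. The core lay before the shared run, in bases that the window near Igfbp3 did not cover. Their centres lay 1358 and 1411 bp inside the element. The peak near Igfbp3 had 142 ChIP reads, 29.0 input reads and an enrichment of 10.2, whereas the peak near 1700060C16Rik had 28.5 ChIP reads, 19.5 input reads and an enrichment of 2.85. Near-identical sequence thus stood under peaks that differed in both reads and enrichment.

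Where the inner edge of the 5′ LTR could be located, it is shown for 1 member of each of the 3 most frequent names, because distances along the element were counted from it. Each line gives 10 bases of the LTR and 20 of the internal part in the direction of the element, and capitals mark TGG, with which the primer binding site of most LTR retrotransposons begins. The members were RLTR6-int near Obp2b (chr2:25727021-25727050, reverse strand), IAPEz-int near 4930515G16Rik (chr6:68290009-68290038, reverse strand) and RLTR45-int near 2810429I04Rik (chr13:3393930-3393959, forward strand), picked after their values were seen.
RLTR6-int edge near Obp2b: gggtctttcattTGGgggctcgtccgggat
IAPEz-int edge near 4930515G16Rik: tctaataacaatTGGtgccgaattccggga
RLTR45-int edge near 2810429I04Rik: ggacgggtcaagTGGcgcccaacgtggggc

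LTR members were mostly of class II. ERVK held 175 of 271 (64.6%, 95% Wilson interval 58.7 to 70.0%), ERV1 held 61 (22.5%), ERVL-MaLR held 29 (10.7%) and ERVL held 6 (2.21%). They carried 57 repeat names, and 11 names with at least 5 members took 198 of the 271. IAPEz-int, the internal part of an IAP element, led with 89 members (32.8%), followed by the class I name RLTR6-int with 37 (13.7%) and the class II name RLTR45-int with 21 (7.75%). MTA_Mm, an LTR of the MaLR group, had 11 members and RLTR1B-int had 7. MMERGLN-int, MMERVK9C_I-int and RMER17B had 6 each, while ERVB4_2-I_MM-int, IAPEY5_I-int and IAPLTR2_Mm had 5 each. The remaining 73 members spread over names with fewer than 5, of which 30 names had 1 member. Names ending in -int, which are internal parts, covered 199 members and the other LTR names covered 72. Of these 72, 2 that could be placed later, IAPLTR4_I and IAPLTR2a2_Mm, were also centred inside an element. The typical LTR member was thus centred inside an element and not on its terminal repeat.

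SINE members were spread more evenly. The B1 elements, listed as family Alu, held 52 of 133 (39.1%, 31.2 to 47.6%), B2 held 28 (21.1%), B4 held 26 (19.5%), the old MIR elements held 22 (16.5%) and ID held 5 (3.76%). Their 29 names included 13 with at least 5 members, which covered 102, and 31 members had rarer names. The most frequent were B1_Mus1 with 13, B3 with 10, and B4A, ID_B1 and MIRb with 9 each. MIR followed with 8, then B1_Mm, B1_Mus2 and B3A with 7 each, B2_Mm2, PB1D10 and RSINE1 with 6 each, and B1_Mur1 with 5. No SINE name led its class as IAPEz-int did.

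The distance rule removed few LTR peaks and many SINE peaks. Within 5 kb of a TSS lay 16 of 287 LTR peaks (5.57%, 3.46 to 8.86%) and 63 of 196 SINE peaks (32.1%, 26 to 39.0%), beside 61.4% of all peaks. Among those within 5 kb, B1 elements led the SINEs with 37, and IAPEz-int had no peak. The LTR peaks just outside the limit were RMER13B near Sh3gl3 at 4992 bp with an enrichment of 5.10, MTB near Dync1li1 at 4281 bp with 2.65 and RMER21B near Ctu1 at 4169 bp with 9.66. Just inside were RLTR6-int near Olfr170 at 5216 bp with 6.35, MLT1A near BC022687 at 5225 bp with 6.90 and MTA_Mm-int near 4930509J09Rik at 5399 bp with 4.90. For SINEs, B4A near Gm6537 at 4974 bp (5.70), ID_B1 near Lemd2 at 4863 bp (5.70) and PB1D7 near Cops7a at 4647 bp (4.25) fell outside. B4A near Arid3a at 5009 bp (6.93), MIRb near 4933417O13Rik at 5025 bp (12.3) and B1_Mus1 near Slc22a18 at 5059 bp (7.0) fell inside. Enrichments on the 2 sides of the limit overlapped.

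The repeat labels were checked against the reference, in which repeats are soft-masked. The centre base was soft-masked in 190 of 271 LTR members (70.1%, 64.4 to 75.2%) and in 77 of 133 SINE members (57.9%, 49.4 to 65.9%), beside 98.2% of distal LINE peaks and 7.95% of other distal peaks. Agreement was near complete for IAPEz-int (88 of 89), MTA_Mm (11 of 11), RLTR6-int (33 of 37) and B1_Mus1 (13 of 13). The centre base was mostly unmasked in RLTR45-int (2 of 21 soft-masked), MMERGLN-int (1 of 6), MMERVK9C_I-int (1 of 6), ERVB4_2-I_MM-int (0 of 5), IAPEY5_I-int (1 of 5) and the MIR family (1 of 22). An unmasked base does not show a label to be wrong. Pairs of direct repeats, described below, were found around 8 of 21 RLTR45-int, 4 of 6 MMERGLN-int and 4 of 6 MMERVK9C_I-int centres. They were also found around 3 of 5 ERVB4_2-I_MM-int and 3 of 5 IAPEY5_I-int centres. Whole peaks were soft-masked over a median of 91.6% of their bases in LTR members and 20.5% in SINE members, against 36.4% of the reference. The MIR label therefore rests on the deposited annotation, and the soft-masked reference did not bear it out at the centre.

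**Figure D1:**
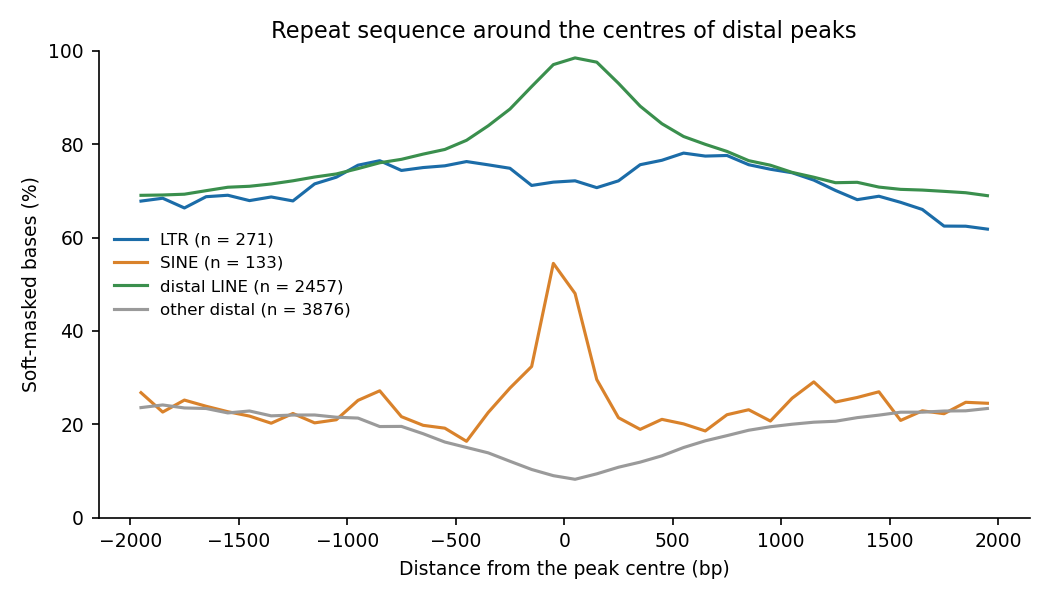
Soft-masked bases (%, vertical axis) by distance from the peak centre (bp, horizontal axis, bins of 100 bp) for distal LTR, SINE, LINE and other peaks, as means over the peaks of each group. LTR peaks lay in broad repeat sequence, with 61.8 to 78.1% in every bin, while SINE peaks had a narrow maximum of 54.5% in the 100 bp before the centre.

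Soft-masked sequence formed a plateau around LTR centres and a narrow spike around SINE centres. In SINE members the share was 54.5% in the 100 bp before the centre and 48.0% in the 100 bp after it, and it was 16.4% at 400 to 500 bp before the centre. The soft-masked run that held the centre had a median length of 5708 bp for IAPEz-int and 1023 bp for RLTR6-int, but 200 bp for B1_Mus1, about the size of the element itself. A SINE peak, with a median length of 2350 bp, was thus mostly sequence on either side of the SINE, while an LTR peak, with a median of 1400 bp, was mostly the element.

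The LTR members with unmasked centres were rich in G and C. Their central 300 bp had a median of 59.0% G and C, beside 52.3% in LTR members with masked centres. Among names, RLTR1B-int (66.3%), RLTR45-int (65.7%) and ERVB4_2-I_MM-int (65.3%) were highest whatever the state of their centres, and their soft-masked shares over the same window were 20.0%, 7.33% and 11.3%. The centre base itself was soft-masked in 5 of 7 RLTR1B-int members. In SINE members the central 300 bp had a median of 49.3% G and C and a CpG observed over expected ratio of 0.249, below the 0.462 of LTR members and the 0.468 of other distal peaks. IAPLTR2_Mm had the highest CpG ratio among the frequent names (0.904) and MTA_Mm the lowest (0.0558).

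Enrichment is the deposited mean enrichment of ChIP over input reads, as normalized by the peak caller of the authors. Median enrichment was 5.36 (quartiles 3.55 and 9.16) in LTR members and 5.15 (4.00 and 6.90) in SINE members, beside 6.20 in other distal peaks, 5.30 in distal LINE peaks and 6.50 in all peaks. When the deposited mean ChIP reads were divided by the mean input reads, the medians were 2.46 for LTR and 2.58 for SINE members. The order of the 2 classes thus turned. This ratio of means has no depth factor, is not the deposited mean enrichment, and covers the 269 LTR members with input reads. Which of these differences turned the order was not tested. Both classes lay below the other distal peaks at the median, while the upper quartile of LTR members lay above the 8.10 of other distal peaks. A value of 10 or more was reached by 62 of 271 LTR members (22.9%, 18.3 to 28.2%) and 5 of 133 SINE members (3.76%, 1.62 to 8.50%), against 14.7% of all deposited peaks. The LTR share stood above that background and the SINE share below it. Distal LINE peaks reached 24.1%, however, close to the LTR share, while other distal peaks reached 12.2% and all peaks beyond 5 kb 16.8%. When peaks with an enrichment under 5 were left out, 142 LTR members remained, and their median lay above that of the other distal peaks by 1.76, whereas with all peaks it lay below, at a difference of -0.840. That filter acts on the compared value itself, so the reversal adds nothing beyond the wider upper range of LTR members.

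LTR families differed. ERV1 had the highest median enrichment (8.85, quartiles 6.24 and 11.4) and 25 of its 61 members reached 10 (41.0%, 29.5 to 53.5%). ERVK had a median of 4.7 (3.40 and 8.08) with 34 of 175 members at 10 or more (19.4%, 14.2 to 25.9%). ERVL-MaLR had a median of 3.60 with 3 of 29, and ERVL had a median of 3.23 with 0 of 6, which allows a share of up to 39.0%. Class I elements thus stood above class II, and class III stood lowest. The ERVL members were MERVL-int (3 members), MERVL_2A-int, MT2_Mm and RLTR28, named here after their values were seen, and their enrichments ran from 2.35 to 4.30. MERVL is the element known for its activity in embryos at the first cleavage stages.

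Names within a family differed as well. RLTR6-int had a median of 9.90 (6.35 and 14.3), and 18 of 37 reached 10 (48.6%, 33.4 to 64.1%). IAPEz-int had a lower median of 4.62 and a wide upper range (quartiles 3.05 and 10.4, highest 40.7), and 24 of 89 reached 10 (27.0%, 18.8 to 37.0%). MMERGLN-int (9.33), IAPEY5_I-int (8.15), MMERVK9C_I-int (8.13) and RLTR1B-int (8.10) followed RLTR6-int, and RLTR45-int had 6.48 and ERVB4_2-I_MM-int 6.07. The names with medians under 5 besides IAPEz-int were IAPLTR2_Mm (4.34), RMER17B (3.93) and MTA_Mm (3.13), all 3 of them terminal repeats. Over all names, those ending in -int had a median of 6.24 with 57 of 199 at 10 or more (28.6%, 22.8 to 35.3%), and the other LTR names had 3.82 with 5 of 72 (6.94%, 3.00 to 15.2%).

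**Figure D2:**
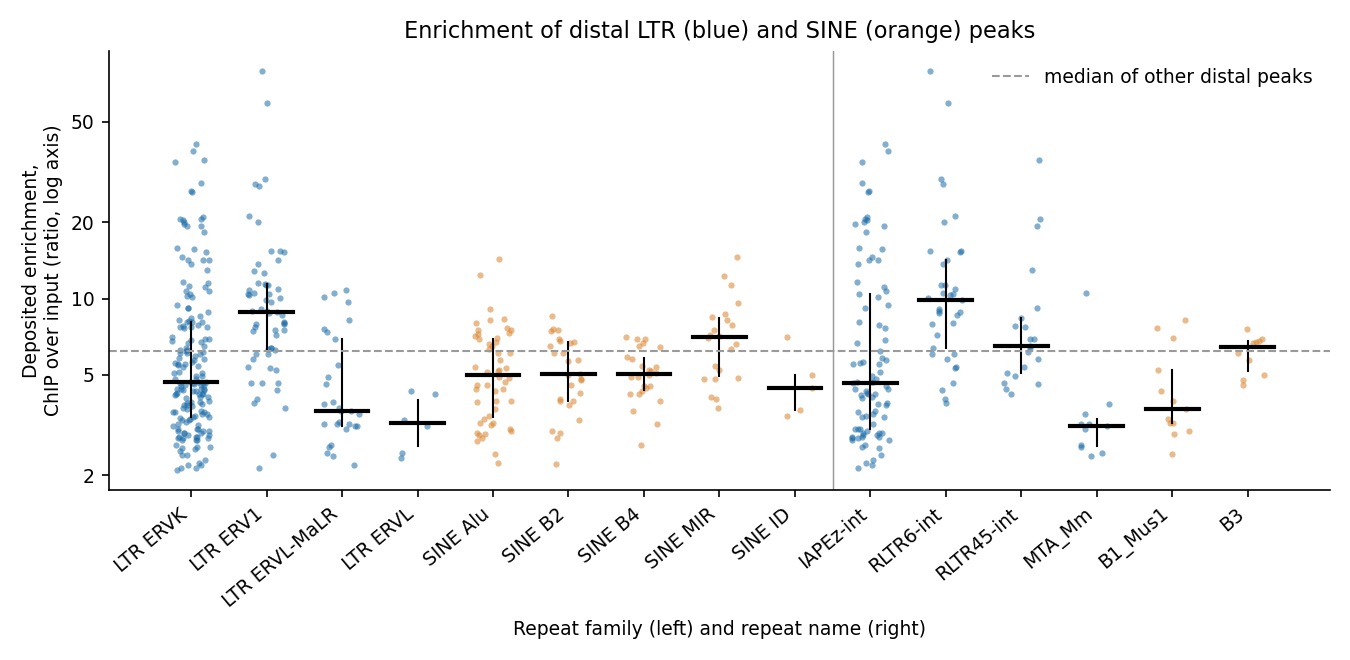
Deposited enrichment (ratio of ChIP over input, log axis) of each distal LTR (blue) and SINE (orange) peak by repeat family and, right of the line, by 6 frequent repeat names; thick bars are medians, thin bars run between quartiles, and the dashed line is the median of other distal peaks (6.20). RLTR6-int stands highest with a median of 9.90, and MTA_Mm lies lowest at 3.13.

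SINE families differed less. Medians were 5.01 for B1 elements, 5.03 for B2, 5.05 for B4 and 4.41 for ID, and the MIR family stood at 7.04 (quartiles 4.94 and 8.39). Of the 5 SINE members at 10 or more, 3 were of the MIR family and 2 were B1 elements. Among names, B1_Mm had a median of 8.00, MIRb 7.12, MIR 6.89, B3 6.41 and B2_Mm2 6.30. B1_Mur1 (6.08), PB1D10 (6.0), B4A (5.10) and RSINE1 (5.03) lay between, and ID_B1 (4.52), B3A (3.94), B1_Mus1 (3.65) and B1_Mus2 (3.16) were lowest. Within the B1 family, close relatives such as B1_Mm and B1_Mus2 therefore lay at opposite ends of the range, with 7 members each.

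The deposited mean reads were divided by peak length, although the list does not say what each mean was taken over. ChIP reads per kb had a median of 22.7 in LTR members and 17.9 in SINE members, beside 21.6 in other distal and 24.2 in distal LINE peaks. Input reads per kb were 7.82 in LTR members, 6.47 in SINE members, 7.14 in other distal and 9.08 in distal LINE peaks. SINE members thus combined low ChIP reads with low input per kb, but their peaks were longer than LTR peaks at the median. Among peaks of 1500 to 2500 bp only, LTR members had 18.2 ChIP and 6.80 input reads per kb. SINE members of that length had 16.6 and 6.625, so the classes lay closer together, most of all in input. The part of peak length in the difference was not tested. Among LTR families, ERV1 had fewer ChIP reads per kb (20.7) than ERVK (23.3) and fewer input reads per kb as well (5.45 against 9.17). Peaks entered the list only with at least 20 ChIP reads, so ChIP reads were cut from below in both families. Within that limit, the higher enrichment of ERV1 went with fewer input reads and not with more ChIP reads.

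The same held for single names. RLTR6-int had 19.3 ChIP reads and 4.15 input reads per kb, the fewest input reads of the frequent names of either class. MTA_Mm had 29.2 ChIP reads and 22.6 input reads per kb, the most of both among the LTR names with at least 5 members. IAPEz-int lay between, with 25.2 and 9.23. Across the 271 LTR members the rank correlation of enrichment was -0.883 with input reads per kb and 0.0736 with ChIP reads per kb. Across the 133 SINE members it was -0.619 and 0.246, across 37 RLTR6-int members -0.927 and 0.339, and across 89 IAPEz-int members -0.852 and 0.124. With the share of 31-mers that occur once in the reference it was -0.0683, 0.307, -0.650 and 0.0358 in these 4 groups, so the higher enrichments of RLTR6-int went with less single-copy sequence. Enrichment holds input in its denominator and the members share their libraries, so these are descriptions. Whether low input alone lifted the enrichment of any peak was not tested.

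**Figure D3:**
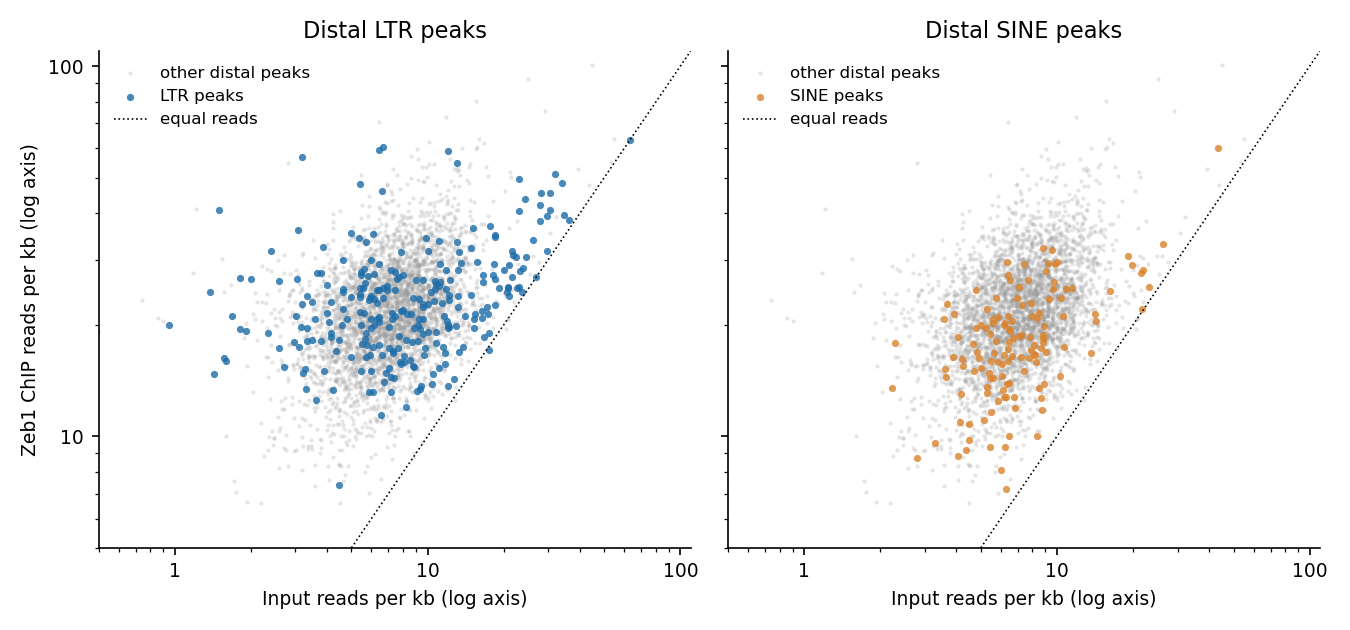
Zeb1 ChIP reads per kb (vertical) against input reads per kb (horizontal), both on log axes, for each distal LTR peak (left, blue) and SINE peak (right, orange), with other distal peaks in grey; the 2 LTR peaks with no input read and grey points beyond the axes are not drawn. LTR peaks spread over the input axis on both sides of the grey cloud, at like ChIP values.

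The highest enrichments rested on few input reads. RLTR6-int near Obp2b, which encodes an odorant-binding protein, had the highest value of all members, 79.4, with 39.5 ChIP reads and 1.00 input read. It lay at chr2:25725351-25727400, in intergenic sequence 10634 bp from the TSS. RLTR6-int near Csmd3, a gene for a large membrane protein (chr15:49175251-49177250, intergenic, 384261 bp from the TSS), had 81.7 and 3.00 reads and an enrichment of 59.0. IAPEz-int assigned to Kcnn2, a potassium channel gene (chr18:45362851-45363900, annotated as intron, 196779 bp from the TSS), followed with 21.0 and 1.00 reads and 40.7, the highest of the ERVK family. IAPEz-int near 4930515G16Rik (chr6:68288651-68289900) had 71.0 and 4.00 reads and 38.1, and RLTR45-int near Gm14420 (chr2:177454851-177456300) had 35.5 and 2.00 reads and 35.4. All 5 therefore had 4 input reads or fewer. Of the LTR members, 2 had 0 input reads, RLTR6-int near Gm20871 on chromosome Y and IAPEz-int near Gm10745 on chromosome 3, picked after their values were seen, and their deposited enrichments of 28.4 and 26.5 equalled their ChIP reads.

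The LTR members with the most ChIP reads were others. IAPEz-int near Igfbp3, the gene of an insulin-like growth factor binding protein (chr11:7580001-7582400, intergenic, 367277 bp from the TSS), had 142 reads. IAPEY2_LTR near Gm13034 (chr4:146058101-146062300) had 117.5 ChIP and 97.5 input reads and an enrichment of 2.80, and IAPEz-int assigned to Gm13154 (chr4:147469801-147473650) had 83.7 and 63 reads and 3.04. The last 2 combined many ChIP reads with many input reads. In the ERVL-MaLR family the highest enrichment was 10.8, of MTD assigned to Cables2 (chr2:180278801-180282050, 43.8 ChIP and 10.8 input reads).

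Among SINE members, the strongest peaks had more input reads. MIR near Llgl2, a gene of cell polarity (chr11:115848801-115856100, annotated as promoter-TSS, 28392 bp from the assigned TSS), had 131 ChIP and 16.7 input reads and an enrichment of 14.6. B1_Mm near Lmna, which encodes lamins A and C (promoter-TSS), had 40.4 and 6.67 reads and 14.4. B1_Mus2 assigned to Olfr1372-ps1 had 12.4, MIRb assigned to 4933417O13Rik (chr7:143324451-143326800) had 12.3 and MIR assigned to Fgf18, a fibroblast growth factor gene (chr11:33122201-33124750), had 11.3. The other families reached less. The highest B2 value was 8.55, of B2_Mm2 near Ap5z1 (chr5:142468051-142471250), and the highest B4 value was 7.05, of B4 assigned to Dnah17 (chr11:118087601-118089750). The most ChIP reads belonged to PB1D10 near the microRNA gene Mir23a (chr8:84199601-84204700, exon), with 162 ChIP and 48.6 input reads and an enrichment of 6.63, and to B1_Mur2 assigned to 1700030M09Rik (chr8:121552901-121561500), with 158 and 57.4 reads and 5.11. These were long peaks of 5100 and 8600 bp, and the list does not say what their mean reads were taken over.

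Only reads that aligned to 1 place were counted by the authors, so the share of sequence that occurs at 1 place in the reference was measured for each member. Single-copy 31-mers made up a median of 21.9% of LTR members (quartiles 7.33 and 63.2%) and 95.8% of SINE members (88.4 and 99.4%), beside 24.8% of distal LINE and 99.2% of other distal peaks. Under 10% were single-copy in 84 of 271 LTR members (31%, 25.8 to 36.7%) and in 0 of 133 SINE members. At least 90% were single-copy in 98 SINE members (73.7%, 65.6 to 80.4%) and in 15 LTR members. With 50-mers the medians were 34.6% for LTR and 98.8% for SINE members. At both lengths, a typical SINE peak was mostly single-copy and a typical LTR peak was not.

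The LTR names differed widely in this share. IAPEz-int had a median single-copy share of 4.49%, and 70 of its 89 members lay under 10%. RLTR6-int had 13.2%, MMERGLN-int 19.5%, IAPEY5_I-int 24.8% and IAPLTR2_Mm 25.7%. RLTR45-int (47.6%), ERVB4_2-I_MM-int (52.5%), MMERVK9C_I-int (58.2%), RLTR1B-int (64%), MTA_Mm (66.7%) and RMER17B (83.6%) were higher. The median 31-mer of an IAPEz-int peak occurred 560 times in the reference and that of an RLTR6-int peak 78 times. In SINEs, B1_Mm (75.4%), B1_Mus2 (84.1%) and B2_Mm2 (87.4%) were lowest and the MIR family (99.5%) highest. Members of 1 name also shared sequence with each other, at a median of 24.3% of 31-mers between any 2 RLTR6-int peaks, 13.5% between MMERGLN-int peaks and 1.37% between IAPEz-int peaks, against at most 0.858% for any SINE name, although RMER17B, IAPEY5_I-int and MMERVK9C_I-int also lay under that value. Peaks of RLTR6-int are therefore not independent of each other in sequence.

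The structure of the elements was then read from the reference, a step chosen after seeing the data. In 159 of 271 LTR members (58.7%, 52.7 to 64.4%) the peak centre lay inside or between direct repeats of 250 to 1200 bp with at least 85% identity, spaced 3000 to 9000 bp apart, as the terminal repeats of 1 element would be. Pairs were found for 32 of 37 RLTR6-int members (86.5%) and 79 of 89 IAPEz-int members (88.8%), but for 8 of 21 RLTR45-int, 2 of 29 ERVL-MaLR and 0 of 11 MTA_Mm members. The repeats of a pair were 99.1% identical at the median for RLTR6-int, 99.6% for IAPEz-int and 93.4% for RLTR45-int, and their median lengths were 556, 356 and 480 bp. Most RLTR6-int and IAPEz-int members thus sat between nearly identical repeats. The repeats of an IAPEz-int pair were not always a full element apart, as 54 of the 74 oriented elements reached the bin from 4500 bp and 46 the bin from 6000 bp.

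The direction of 145 of these 159 elements could be set from the pyrimidine share at the inner edges of the repeats. TGG followed the 5′ LTR in 129 of the 145, as in the edges printed above, and the 3′ LTR in 1. The peak centre was internal in 136 elements, in the 5′ LTR in 7 and in the 3′ LTR in 2. Of the 136 internal centres, 110 were nearer to the 5′ LTR (80.9%, 73.5 to 86.6%), and 95 lay within 1500 bp of it. With the internal part divided into 3 equal parts from the 5′ LTR on, the counts were 95, 21 and 20. The LTR members that could be placed were thus gathered at the 5′ end of the internal part.

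RLTR6-int showed this in every element that could be read. All 29 oriented centres lay within 1500 bp of the 5′ LTR, at a median of 726 bp (quartiles 661 and 818 bp, range 58 to 1174 bp), although the internal part had a median length of 7675 bp. The peaks ran from a median of 332 bp before the edge (position -332) to 1748 bp after it, and 26 of 29 reached into the 5′ LTR. In bins of 500 bp, the peak covered the middle of the bin in 18 of 29 elements before the edge, then in 27, 29, 29 and 14 going inward, and in 0 of 29 in the bin from 2000 bp on. The single-copy share was 10.7% in the bin before the edge and 18.2, 16.9, 18.9 and 14.6% in the next 4 bins. It ran from 11.4 to 17.3% in the bins beyond 2000 bp, where no peak stood, so the ranges of covered and uncovered bins overlapped. G and C made up 57.3, 54.9 and 55.2% of the first 3 internal bins, which were the highest. Bins without a peak reached 53.2%, above the 51.0% of the bin from 1500 to 2000 bp.

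IAPEz-int centres were spread more widely. Of 74 internal centres, 53 were nearer to the 5′ LTR (71.6%, 60.5 to 80.6%), and 44 lay within 1500 bp of it, with a median distance of 1289.5 bp (quartiles 853 and 2465.5 bp). In the 3 equal parts the counts were 44, 14 and 16. Coverage was highest from 500 to 1500 bp, with 44 and 47 of 74 elements in those 2 bins, fell to 3 of 68 from 3500 to 4000 bp, and came to 8 of 53 from 5000 to 5500 bp. The single-copy share stayed between 2.89 and 5.91% from the edge to 6500 bp. Few peaks, 5 of 74, reached into the 5′ LTR.

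**Figure D4:**
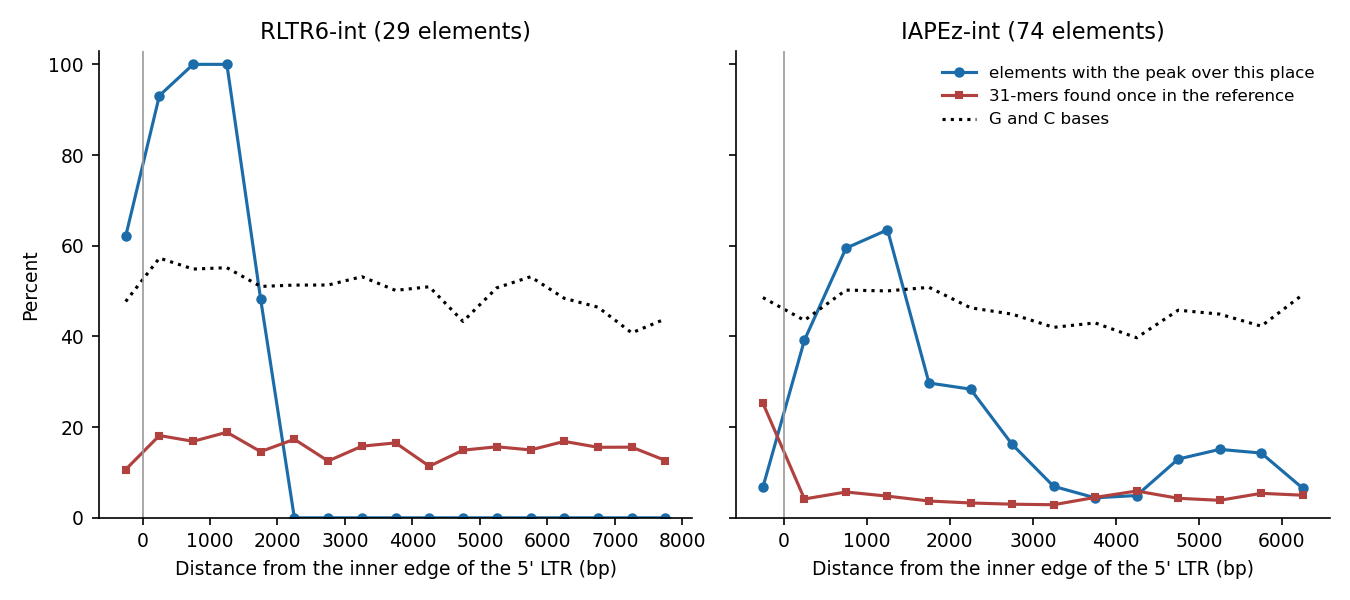
Share of elements whose peak covers the middle of each 500 bp bin (blue), single-copy share of 31-mers (red) and G and C bases (dotted), all in percent, against the distance from the inner edge of the 5′ LTR (bp) for 29 RLTR6-int and 74 IAPEz-int elements; bins with fewer than 20 elements are left out, and the bin before the edge reaches past the shorter IAPEz-int LTR. RLTR6-int peaks cover 100% of elements from 500 to 1500 bp and 0% beyond 2000 bp, where single-copy shares run from 11.4 to 17.3%.

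Place in the element went with enrichment. The 44 IAPEz-int members within 1500 bp of the 5′ LTR had a median enrichment of 9.81 (quartiles 5.08 and 16.4), and the 30 beyond it had 3.03 (2.80 and 4.04). ChIP reads per kb were 26.5 and 26, and the single-copy shares were 4.38 and 4.02%. Input reads per kb were 6.40 and 18.5. The members near the 5′ LTR therefore had about the same ChIP reads per kb as those further in, and differed in input. Both groups hold only peaks with at least 20 ChIP reads, so copies with fewer ChIP reads could enter neither. The part of the input reads in the difference of enrichment was not tested. Over all 136 LTR members with a placed internal centre, the medians were 8.95 for 95 centres within 1500 bp and 3.06 for 41 beyond, with 5.71 and 17.6 input reads per kb, but 30 of the 41 were the same IAPEz-int members. The others varied, from 2.20 for an MMERVK10C-int member to 14.2 for an MMERVK9C_I-int member. A single IAPEz-int member beyond 1500 bp exceeded 10, the one near Gm10745 with no input read, at 5525 bp.

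**Figure D5:**
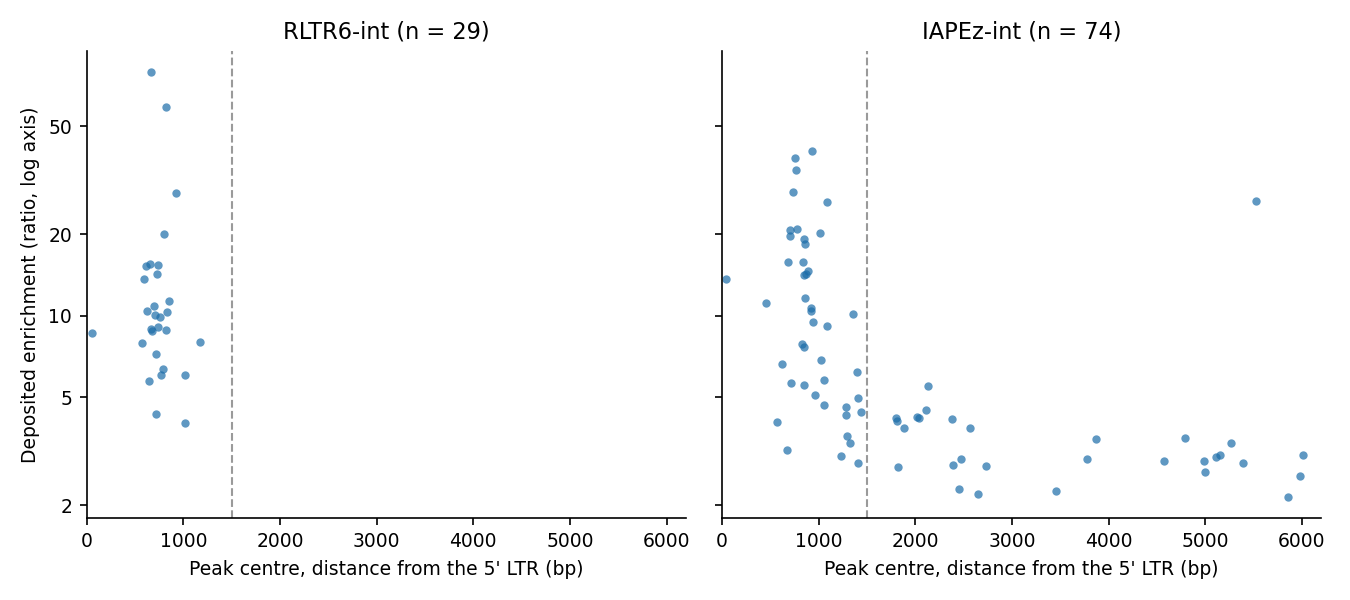
Deposited enrichment (ratio, log axis) against the distance of the peak centre from the inner edge of the 5′ LTR (bp), 1 point for each member with an oriented element and an internal centre, for RLTR6-int (n = 29) and IAPEz-int (n = 74); the dashed line marks 1500 bp. RLTR6-int points lie between 58 and 1174 bp, and IAPEz-int points beyond the line have a median of 3.03.

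Other frequent internal names with a pair were also placed at the 5′ end. The 8 RLTR45-int centres lay at 869 to 1236 bp, the 4 MMERGLN-int centres at 1060 to 1152 bp and the 3 IAPEY5_I-int centres at 296 to 361 bp. MMERVK9C_I-int differed, with 3 centres at 2081 to 2591 bp, still nearer to the 5′ LTR. The centres within a terminal repeat belonged to members with LTR names, among them 3 of the 5 IAPLTR2_Mm members, 2 in the 5′ and 1 in the 3′ LTR. The 3 ERVB4_2-I_MM-int centres ran from 983 to 2318 bp. The range was narrow for RLTR45-int, MMERGLN-int and IAPEY5_I-int, and wide for IAPEz-int.

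For RLTR6-int, IAPEz-int, MMERGLN-int and RLTR45-int, most loci in the reference that matched a probe had no peak. Each probe was taken from a member, so its own locus is among those with a peak. The central 1000 bp of 1 RLTR6-int member matched 166 loci at 90% identity or more over at least 800 bp, and 31 of them overlapped a peak (18.7%, 13.5 to 25.3%). For IAPEz-int the count was 7 of 215 (3.26%, 1.59 to 6.57%) for the probe taken from a single place of the element, or 5 of 78 (6.41%) at 95% identity. These 7 loci overlapped members, of which IAPEz-int had 89, so 3.26% is not the share of all IAPEz-int copies. The count was 5 of 62 (8.06%) for MMERGLN-int and 9 of 24 (37.5%, 21.2 to 57.3%) for RLTR45-int. For these names, loci with a peak held more single-copy sequence than loci without. For RLTR6-int the median single-copy share was 16.4% with a peak and 10.2% without, for RLTR45-int 44.4% and 0%, and for IAPEz-int 4.74% and 0%, or 4.74% and 3.09% at 95% identity. For MMERVK9C_I-int the values were 52.5% at the 1 locus with a peak, that of the probe, and 61.3% at the 1 without, too few for a direction. At 80% identity, 2 of its 71 loci were in a peak, with 55.6% against 61.2%. At 90% identity, the probes of MTA_Mm, RLTR1B-int, RMER17B, ERVB4_2-I_MM-int and IAPLTR2_Mm matched 1 locus each, in a peak. For IAPEY5_I-int, 4 of 15 loci were in a peak. How many of the loci without a peak could have received reads was not tested, so a locus without a peak cannot be told apart from one that uniquely placed reads could not cover.

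E-box cores at the centres of members were about as frequent as in all peaks. They were less frequent than in all peaks beyond 5 kb, which include the distal LINE peaks. The share of other distal peaks lay within the intervals of both classes. CACCTG on either strand was present in the central 300 bp of 72 of 271 LTR members (26.6%, 21.7 to 32.1%) and 37 of 133 SINE members (27.8%, 20.9 to 36.0%). The same window held it in 29.4% of all peaks, which lies within both intervals, in 36.2% of all peaks beyond 5 kb, 31.4% of other distal and 45.3% of distal LINE peaks, in 20.2% of RefSeq promoter windows and in 17.1% of all 300 bp tiles of the reference. Among the 3 most frequent LTR names, RLTR45-int (9 of 21) and RLTR6-int (15 of 37, 40.5%) were above IAPEz-int (17 of 89, 19.1%). Names with fewer members ran from 0 of 6 (MMERGLN-int and RSINE1) and 0 of 5 (IAPLTR2_Mm) to 4 of 7 (RLTR1B-int and B3A). A longer Zeb1 motif of 8 letters (CNCACCTG, CNTACCTG, TNCACCTG or TNTACCTG), which overlaps the core, was present in 21.0% of LTR and 24.1% of SINE members, beside 23.7% of all peaks and 16.2% of tiles. For this motif IAPEz-int was higher than RLTR6-int, with 31 of 89 members (34.8%) against 1 of 37.

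The place of the E-box cores was then read along the RLTR6-int elements. Over whole peaks, 37 of 37 RLTR6-int members held a CACCTG, against 183 of 271 LTR members (67.5%), 114 of 133 SINE members (85.7%) and 82.1% of all peaks. RLTR6-int peaks were longer than LTR peaks at the median (2100 bp), which was not corrected for. Every member of the SINE names B3, MIRb, B1_Mus2, B3A, PB1D10 and B1_Mur1 held a CACCTG as well. In the 29 oriented RLTR6-int elements, the 20 bp bin at 181 to 200 bp from the 5′ LTR held it in 24 (82.8%), the bin at 1061 to 1080 bp held it in 12, and the bin at 761 to 780 bp, the nearest of these to the median centre at 726 bp, held it in 6. Each element had a median of 3 E-box cores in its first 2000 bp. No bin of IAPEz-int reached more than 9 of 74 elements. A letter match is a description and does not show binding.

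Of the other motifs, the B box (GTTCNANNC), part of the internal RNA polymerase III promoter of SINEs, was present in the central 300 bp of 53 of 133 SINE members (39.8%, 31.9 to 48.3%), 25 of 271 LTR members (9.23%), 7.88% of all peaks, 9.32% of promoter windows and 12.4% of tiles, or 16.8% of tiles that were mostly soft-masked. The highest names were B1_Mus2 (6 of 7), B2_Mm2 (5 of 6) and B1_Mus1 (10 of 13), followed by the LTR name MTA_Mm (8 of 11) and by B1_Mm (5 of 7). The Esrrb motif TCAAGGTCA was present in 6 LTR members (2.21%, 1.02 to 4.75%), of which 5 were IAPEz-int, and in 4 SINE members (3.01%, 1.2 to 7.48%), of which 3 were ID_B1, against 0.361% of all peaks and 0.629% of tiles. The octamer ATGCAAAT was present in 2 LTR members and 0 SINE members, beside 0.992% of all peaks, 1.74% of promoter windows and 2.61% of tiles. The B box was thus more frequent in SINE members than in the backgrounds, though most SINE members lacked it, and it was present in 3 of 22 members of the MIR family, 5 of 26 of B4 and 0 of 5 of ID. The Esrrb motif was found in few members, mostly of the names IAPEz-int and ID_B1, at shares above those of all peaks and tiles. Its intervals count members of 1 name as separate, so they do not test the difference. The octamer was no more frequent than in tiles.

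LTR and SINE members lay in different parts of the genome. By the deposited annotation, 203 of 271 LTR members were intergenic (74.9%, 69.4 to 79.7%), 56 were in introns, 6 were at promoters, 6 at transcript ends (TTS) and 0 in exons. Of the 133 SINE members, 82 were in introns (61.7%, 53.2 to 69.5%), 25 were intergenic, 15 were at promoters, 9 at transcript ends and 2 in exons. The members annotated at promoters, 21 of 404, lay above 5000 bp from the TSS of the assigned gene, and are distal in that sense only. Median distances were 57010 bp for LTR and 16803 bp for SINE members, and 149 LTR members (55%) but 18 SINE members (13.5%) lay beyond 50 kb, against 70.6% of distal LINE and 21.8% of other distal peaks. The intergenic share of LTR members was near the 76.9% of distal LINE peaks, while their share beyond 50 kb was lower. ERVL-MaLR differed from the other LTR members, with 16 of 29 in introns.

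Members were found on every chromosome. The counts were highest on chromosomes 4 (39 of 1279 peaks), 8 (38 of 1323), 7 (33 of 1326), 6 (32 of 962) and 11 (31 of 1398), beside 404 of 17435 in the whole list. The density was highest on chromosome 8 with 3.03 members per 10 Mb of sequence. As a share of peaks, chromosome 8 lay below others, such as chromosome 6 and chromosome 16 (16 of 484). Chromosome Y had 6 LTR members among its 32 peaks (18.8%), beside 271 of 17435 in the whole list. Within 100 kb of another of their class lay 20 LTR members in 10 pairs (7.38%) and 17 SINE members in 6 runs (12.8%). The largest run had 5 SINE members over 125050 bp on chromosome 7, of which 4 were assigned to Mir1963 and 1 to Eif3k, a translation initiation factor subunit. Their enrichments for Mir1963 were 7.50, 6.08, 5.0 and 4.86. A530013C23Rik on chromosome 2 was assigned 3 SINE members, with 8.25, 7.52 and 4.00. No other gene had 3 or more, and the 404 members were assigned to 384 genes.

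Of the 404 members, 4 were assigned to a gene of the lists. By symbol, 10621 of 21900 protein-coding genes had a peak (48.5%) and 295 had a member (1.35%). Of 21 naive pluripotency genes, 16 had a peak in the whole list and 1 had a member, Klf2, with ID4 at 38638 bp from its TSS (chr8:72356151-72359250) and an enrichment of 3.64. Of 23 genes that silence endogenous retroviruses, 17 had a peak and 1 a member, Morc3, with B2_Mm1a at 26946 bp (chr16:93803951-93806400) and 4.25. Of 12 mesendoderm genes, 12 had a peak and 2 a member, both intergenic. These were Eomes, a T-box factor, with ID_B1 at 11261 bp and 3.95, and Gsc, a homeobox factor, with B4A at 25761 bp and 4.90. Among 11 genes of the 2-cell stage, 2 had a peak and 0 a member, and among 10 genes of Zeb1 partners and the epithelial-mesenchymal transition, 9 had a peak and 0 a member. The 4 members on these lists were SINEs with enrichments under the SINE median of 5.15, and no LTR member was assigned to a gene of these lists.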

How the data were processed

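Zeb1 ChIP-seq was measured in 3 ChIP libraries and 1 input library of D3 mouse embryonic stem cells. Per the submitters' processing notes, reads were checked with FastQC 0.11.2, aligned with STAR 2.4.2a, freed of duplicates with Picard 1.136 and annotated with HOMER 4.7, and DESeq was used with no version given. The authors called peaks in each ChIP library against the input with PeakRanger, from uniquely aligned reads, kept peaks with at least 20 ChIP reads and an enrichment of 2, and unified those found in at least 2 libraries. The deposited list gives, for each of 17435 peaks, the signal in reads for ChIP and input, the fold enrichment as a ratio, a p-value and the distance to the TSS in bp. The deposited p-value was 0 in all peaks and was not used. The authors drew the same number of reads from each sample, and the reads per library are not in the list, so no interval for reads was computed.

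Members were peaks more than 5000 bp from a TSS with the class LTR or SINE in the repeat annotation. Members and gene lists were chosen with earlier results of these data known. Named members were the 5 with the highest enrichment and the 3 with the most ChIP reads in each class, the highest in each family with at least 10 members, genes with at least 3 members, and members of the gene lists. Printed sequences are the central 120 bases of the 3 members of each class with the highest enrichment outside chromosome 18, except the B1 elements among them, which leaves 1 SINE member, and of the pair of members of 1 name that shared the most 31-mers. Names with at least 5 members were described.

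Sequence came from GRCm38.p6. Soft-masked bases, G and C, motifs on both strands and k-mers of 31 bases that occur once in the reference were counted over whole peaks or the central 300 bp. Motif shares were also counted in promoter windows and in all tiles of 300 bp. After the data were seen, direct repeats were searched with BLAST 2.17.0 within 9 kb of each LTR centre, elements were oriented by a gap of at least 20 points in pyrimidine share over the 15 bases at the inner edges, and copies of a 1000 bp probe were searched in the reference. The median was used throughout. Shares carry 95% Wilson intervals, which cover counting error only. Python 3.11.15, NumPy 2.4.6, pandas 2.3.3, SciPy 1.17.1, Numba 0.67.0 and Matplotlib 3.10.9 were used. Alternatives changed the distance, the enrichment, the peak length, the windows, the motif and the k-mer length. The counting steps were tested on simulated data.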

Additional observations from a re-analysis of the deposited data

Results flagged for a closer look

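Peaks annotated as satellite repeats were counted among the other distal peaks and were not described as a group of their own. There were 13 of them beyond 5 kb, and their median enrichment over input was 3.00.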

How the results depend on the processing

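Of 70 alternatives written down at the start, 40 left a value within its interval, or a count within 1.5 times, 29 moved it and 1 reversed it. The 14 alternatives chosen after seeing the data left each value within its interval, or a count within 1.5 times. The widest changes among them were in IAPEz-int, where the near minus far difference in enrichment went from 6.78 to 10.4 with a limit of 1000 bp, and the share of copies in a peak went from 3.26% to 6.41% at an identity of 95%. With the distance limit at 2000 or 10000 bp, LTR members numbered 284 or 245 and SINE members 164 or 93, within 1.5 times, and family shares and median enrichments stayed within their intervals. Reads per kb did so at 10000 bp. In all cases below, the cause was not tested.

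With peaks of an enrichment of at least 5 only, the LTR median minus that of other distal peaks reversed to 1.76, under a filter that acts on the compared value itself. LTR members numbered 142, the ERVK share was 57.0%, their median enrichment was 8.92 and their input reads per kb were 5.52. SINE members numbered 73, with a median enrichment of 6.76, a difference from other distal peaks of -0.398, 19.6 ChIP reads per kb and 5.76 input reads per kb.

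With peaks of 1500 to 2500 bp only, LTR members had 18.2 ChIP and 6.80 input reads per kb, and the SINE difference in enrichment was -1.45. SINE members of that length had 16.6 and 6.625 reads per kb, which stayed within their intervals. With mean ChIP reads divided by mean input reads, the median ratio was 2.46 for LTR members with input reads and 2.58 for SINE members. Their order turned, and the SINE difference was -0.461. With soft-masked centres only, 77 SINE members were left, and the Alu family share was 57.1%.

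CACCTG was found in 53.9% of LTR and 66.2% of SINE members over the central 1000 bp, in 67.5% and 85.7% over whole peaks, and in 13.7% and 15% on the forward strand alone. The 8-letter Zeb1 motif gave 21.0% for LTR members. The soft-masked share of SINE members was 45.3% over the central 300 bp and 26.1% over the central 1000 bp. With k-mers of 50 bases, single-copy shares were 34.6% for LTR and 98.8% for SINE members, and with 31-mers of the central 300 bp the SINE share was 98.5%.

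No library was left out in turn, as the list holds no value per library, and the list gives no reads per library.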
